A study of Mus musculus with 9 samples.

Results

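The genes described here encode enzymes and readers that write, erase or recognise marks on histones and DNA, together with a few chromatin remodellers and organizers. They were taken from a list of 54 named genes. The authors' deposited table of promoter accessibility held a window for 53 of them, 1 window each, out of 10198 genes and 10271 windows in all. Ash1l, a histone H3 lysine 36 methyltransferase gene, was the listed gene with no window assigned to it. A window was given to the gene whose 5' end lay within 1000 bp of the window's start position on the same strand, and otherwise to the gene that spans it.

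Accessibility was measured by ATAC-seq (sequencing of the open DNA that the Tn5 transposase can reach) in HPC7, a mouse hematopoietic progenitor line kept in stem cell factor. All groups carried an MIG retroviral vector, which was empty in the control (EV, 3 libraries), encoded wildtype Snai1 (FLAG-tagged by the design text, 3 libraries) or encoded the mutant named mut5Snai1 (3 libraries, not analysed here). Snai1 is a zinc finger repressor that binds E-box sequences and recruits histone-modifying enzymes through its SNAG domain. Whether each library had its own transduction is not stated in the labels, and the authors' p-values therefore measure a spread between libraries that may be technical. The table gives the authors' 1 value per group, with no value per library, so no standard deviation can be attached to a level. Windows were found for all 10 progenitor genes checked (among them Kit, Tal1 and Spi1; EV log2 concentration 9.22 to 12.22), for 1 of 8 fibroblast genes (Pdgfrb, 10.14 in EV, within that range) and for 0 of 5 epithelial genes. Of the 10 progenitor windows, 3 rose and 2 fell, with changes from -0.61 to 0.41.

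Chromatin regulators work in opposed sets. Polycomb complexes silence developmental genes by marking histone H3 lysine 27 and H2A, whereas the MLL and SET1 enzymes methylate H3 lysine 4 at active promoters. HP1 proteins read H3 lysine 9 methylation in heterochromatin, Dnmt enzymes methylate cytosine, and Tet enzymes oxidise it. Several of these genes, among them Tet2, Dnmt3a and Kmt2a, are known for their part in blood stem cell function and in leukemia.

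Most promoters of the listed chromatin regulators differed little between Snai1 and EV, and 4 windows, all inside genes, closed strongly. Levels are the log2 concentration given by the authors (in DiffBind, the log2 mean normalized read count of a window), and changes are Snai1 minus EV. A change was called where the authors' FDR was under 0.05. By that rule the authors' deposited table had 6 of the 53 members higher in Snai1 and 8 lower, 26.4% in all, and 39 that did not pass. The share called over all windows was 29.9% (19.6% higher and 10.3% lower), so the number of members called lay near the background. The median change of the members was 0.01, against 0.08 over all genes with a window. The 4 strong decreases were at Cbx7, Mllt3, Tet3 and Satb1, which fell 8.40-fold, 6.68-fold, 6.19-fold and 2.69-fold. Falls of at least 1 log2 unit that passed were seen at 1.31% of all genes with a window. The other 49 members lay between -0.39 and 0.33 per the authors' deposited table, with a median absolute change of 0.07. Over all 53 members the median absolute change was 0.08, against 0.14 over all genes with a window. The list was drawn up with earlier results of these data known. The 4 strong decreases therefore do not show that chromatin regulators close more often than other genes. Among 123 other chromatin regulators with a window, described below, the lowest change was -0.74.

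**Figure D1:**
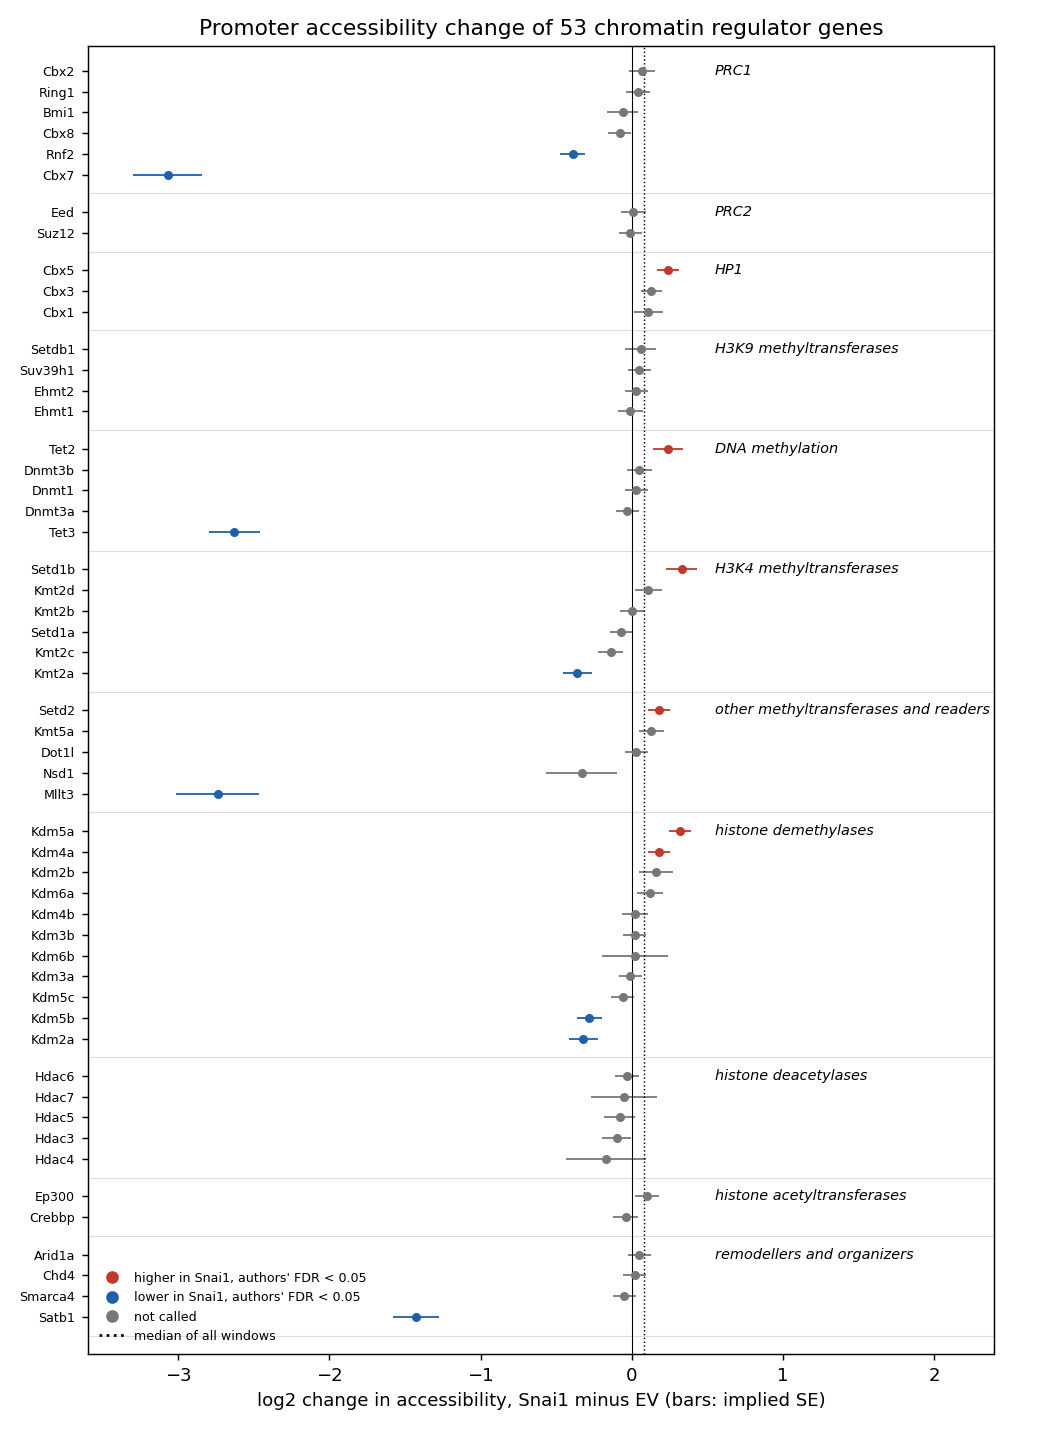
Each point is the log2 change (Snai1 minus EV) at the window of 1 of the 53 genes, grouped by role, with the implied standard error as the bar; red and blue mark windows that passed the authors' FDR of 0.05. Cbx7, Tet3, Mllt3 and Satb1 sit between -3.07 and -1.43, and the other 49 genes sit between -0.39 and 0.33.

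Cbx7 encodes a chromodomain subunit of the canonical Polycomb repressive complex PRC1 and is known as a regulator of stem cell self-renewal. Its window (mm10, chr15:79932546-79933646) stood at 7.82 in EV and 4.75 in Snai1 per the authors' deposited table. On the linear scale this is 226 against 26.9 normalized reads. The change of -3.07 had an implied SE of 0.23 (worked back from the change and its p-value) and an authors' FDR of 1.70e-38. The level in EV was below the EV median of 10.55 over genes with a window of that width. By the concentration over both groups (6.98), which the Snai1 value lowers, it ranked at the 3.05th percentile of windows of its width.

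Mllt3 encodes AF9, a reader of acylated histones that brings the H3 lysine 79 methyltransferase Dot1l to chromatin. Its window (chr4:87806223-87807323) fell from 7.53 in EV to 4.79 in Snai1 per the authors' deposited table (change -2.74, implied SE 0.27, FDR 1.12e-21). Tet3 encodes a dioxygenase that oxidises methylated cytosine. Its window (chr6:83441578-83442678) fell from 8.84 to 6.21 per the authors' deposited table (change -2.63, implied SE 0.17, FDR 4.75e-53). Satb1 encodes a DNA-binding organizer of chromatin loops known from lymphoid cells. Its window (chr17:51811954-51813054) fell from 8.77 to 7.33 per the authors' deposited table (change -1.43, implied SE 0.15, FDR 5.30e-19).

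The 4 windows lay inside their genes and not at the outermost annotated 5' end. Cbx7's was 38497 bp inside, Mllt3's 227084 bp, Tet3's 15530 bp and Satb1's 21236 bp. Each coincided, at a distance of 0 bp, with the start of an annotated RefSeq transcript, so each is an internal start of its gene in that annotation. All 4 ranked in the lowest decile of accessibility (percentiles 2.36 to 7.35 among windows of the same width). The rank was taken on the concentration over both groups, so a fall in Snai1 itself lowers it. In EV the 4 windows stood between 7.53 (Mllt3) and 8.84 (Tet3), and no rank was taken on EV alone. Of all genes with a window in that decile, 8.84% fell by at least 1 log2 unit and passed, against 1.31% over all deciles. Part of this difference is built in, because such falls lower the rank. Increases of at least 1 log2 unit that passed, 0.706% of all genes with a window, were seen at 0 members. By position, 1.80% of 1277 windows inside genes and 1.24% of 8921 windows at gene starts fell by at least 1 log2 unit and passed. Position does not depend on the levels, so this contrast cannot be weighed against that by accessibility.

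Low accessibility over both groups went with either outcome among the members. Of the 8 members in the lowest decile, 4 were the decreases above and 4 did not pass. The windows of Hdac4 (6.11 in EV, 5.95 in Snai1), Hdac7 (6.41 and 6.36), Nsd1 (6.83 and 6.5) and Kdm6b (7.43 and 7.45) were weaker in EV than those of Cbx7, Mllt3, Tet3 and Satb1 per the authors' deposited table, all of them windows of 1101 bp except that of Nsd1 (2001 bp). Errors were wider there: the median implied SE was 0.18 in the lowest decile and 0.08 above it, so the -0.33 at Nsd1 (implied SE 0.23, FDR 0.287) did not pass. Hdac4 and Kdm6b encode a class IIa deacetylase and an H3 lysine 27 demethylase. Their windows also lay inside the gene, at 47309 and 6692 bp from its outer end, but were not matched to an annotated start. Hdac4's was 31948 bp from the nearest RefSeq transcript start, and no such distance was available for Kdm6b.

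**Figure D2:**
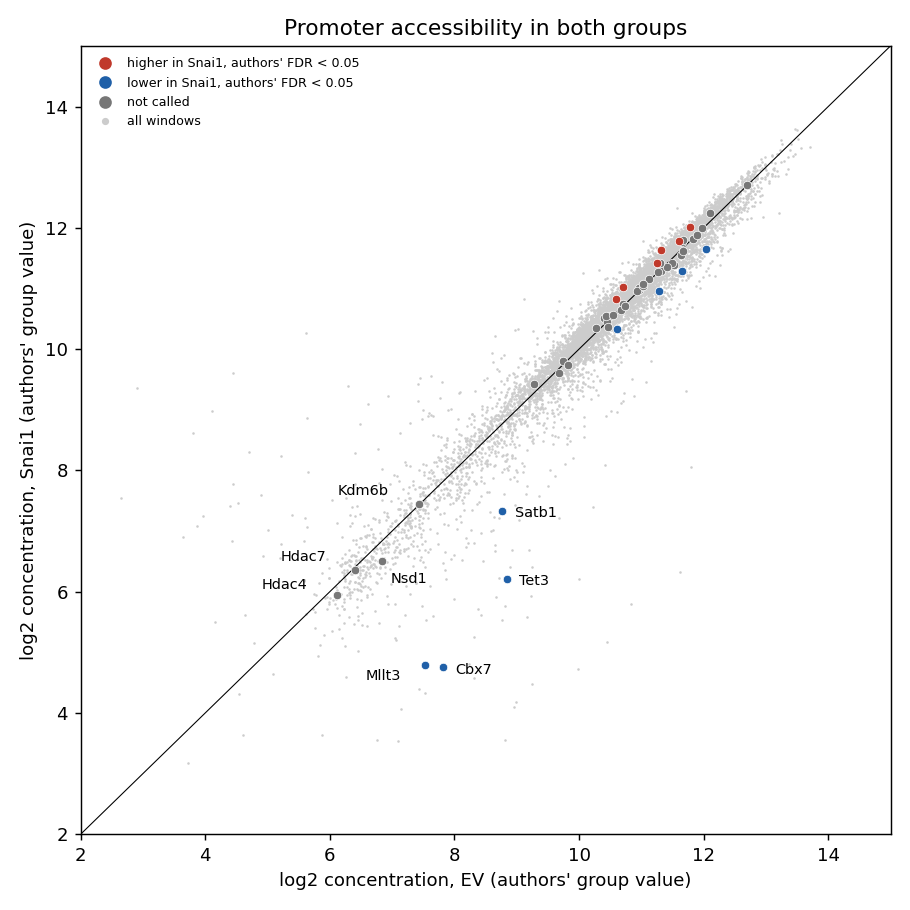
The authors' log2 concentration in Snai1 is plotted against that in EV for every window (grey) and for the 53 members (coloured by call), with the line of equal values. Cbx7, Mllt3, Tet3 and Satb1 lie far below the line, whereas Hdac4, Hdac7, Nsd1 and Kdm6b lie near it at levels from 6.11 to 7.43 in EV.

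The 250 bases upstream of the start were taken from RefSeq (GRCm38.p6) for the 41 members whose window lay within 250 bp of a start in the sequence table. The promoters with the largest called decreases and increases are shown to compare their base composition, 5' to 3' on the gene's strand, with every CpG dinucleotide in capitals. The Setd1b and Kdm5a promoters, which had larger increases, are not in the table. The 3 with the largest decreases were:
Cbx7, chr15:79932647-79932896, minus strand: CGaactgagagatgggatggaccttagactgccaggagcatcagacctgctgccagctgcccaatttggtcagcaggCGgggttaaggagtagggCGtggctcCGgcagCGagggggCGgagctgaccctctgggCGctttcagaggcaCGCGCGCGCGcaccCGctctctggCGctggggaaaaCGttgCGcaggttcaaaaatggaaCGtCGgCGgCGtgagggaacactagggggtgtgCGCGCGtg
Mllt3, chr4:87806324-87806573, minus strand: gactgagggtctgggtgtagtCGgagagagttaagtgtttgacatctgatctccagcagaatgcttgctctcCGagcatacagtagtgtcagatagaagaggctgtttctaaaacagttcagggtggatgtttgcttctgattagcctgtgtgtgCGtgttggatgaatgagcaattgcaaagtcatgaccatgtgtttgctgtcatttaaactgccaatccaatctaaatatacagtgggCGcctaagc
Tet3, chr6:83441679-83441928, minus strand: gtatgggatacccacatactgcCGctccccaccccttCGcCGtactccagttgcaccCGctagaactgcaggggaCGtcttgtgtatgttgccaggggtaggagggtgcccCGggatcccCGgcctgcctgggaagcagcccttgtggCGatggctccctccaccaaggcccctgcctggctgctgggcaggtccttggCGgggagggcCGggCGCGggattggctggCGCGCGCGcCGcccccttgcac
Of the increases with a sequence, the largest were at Cbx5 and Tet2, followed by Kdm4a and Setd2 with equal changes of 0.18, of which Kdm4a is shown:
Cbx5, chr15:103239853-103240102, minus strand: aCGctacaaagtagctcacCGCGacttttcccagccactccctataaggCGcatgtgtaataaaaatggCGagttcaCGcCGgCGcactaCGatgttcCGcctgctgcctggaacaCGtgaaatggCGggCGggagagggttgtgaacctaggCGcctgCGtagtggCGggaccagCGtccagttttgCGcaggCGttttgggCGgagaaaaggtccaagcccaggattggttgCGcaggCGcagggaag
Tet2, chr3:133544391-133544640, minus strand: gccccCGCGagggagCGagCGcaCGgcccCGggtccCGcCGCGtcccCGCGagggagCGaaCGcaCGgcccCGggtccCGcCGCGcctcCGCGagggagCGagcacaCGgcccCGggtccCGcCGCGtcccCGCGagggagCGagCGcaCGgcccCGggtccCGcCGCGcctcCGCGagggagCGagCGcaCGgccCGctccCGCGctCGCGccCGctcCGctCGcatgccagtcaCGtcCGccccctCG
Kdm4a, chr4:118180044-118180293, minus strand: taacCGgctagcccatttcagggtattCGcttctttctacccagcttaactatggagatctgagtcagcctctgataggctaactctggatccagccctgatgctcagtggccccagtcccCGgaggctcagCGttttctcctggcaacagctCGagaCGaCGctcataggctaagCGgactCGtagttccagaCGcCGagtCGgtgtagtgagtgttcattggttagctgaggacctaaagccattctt

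These promoters differed widely in CpG content. Mllt3 held 4 CpGs in 250 bases, with an observed to expected ratio of 0.329, and Satb1 held 6 (0.515). The Cbx7 promoter held 23 (0.917), and Tet3 held 17 (0.562). Among the promoters that rose, Tet2 held 51 (1.19), Cbx5 22 (1.02), Setd2 31 (0.94) and Kdm4a 12 (0.67). The median ratio was 0.842 over the 41 members, 0.767 over all 7955 genes with a sequence and 0.377 over those in the lowest decile of accessibility. Cbx7 combined low accessibility with a CpG-rich sequence, at the 75.5th percentile of CpG ratio, whereas Mllt3 lay at the 9.9th. Across all 7955 promoters the ratio and the EV concentration had a Spearman correlation of 0.30 (0.25 over the 41 members), given as a description, since the promoters share libraries and differ in base composition.

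**Figure D3:**
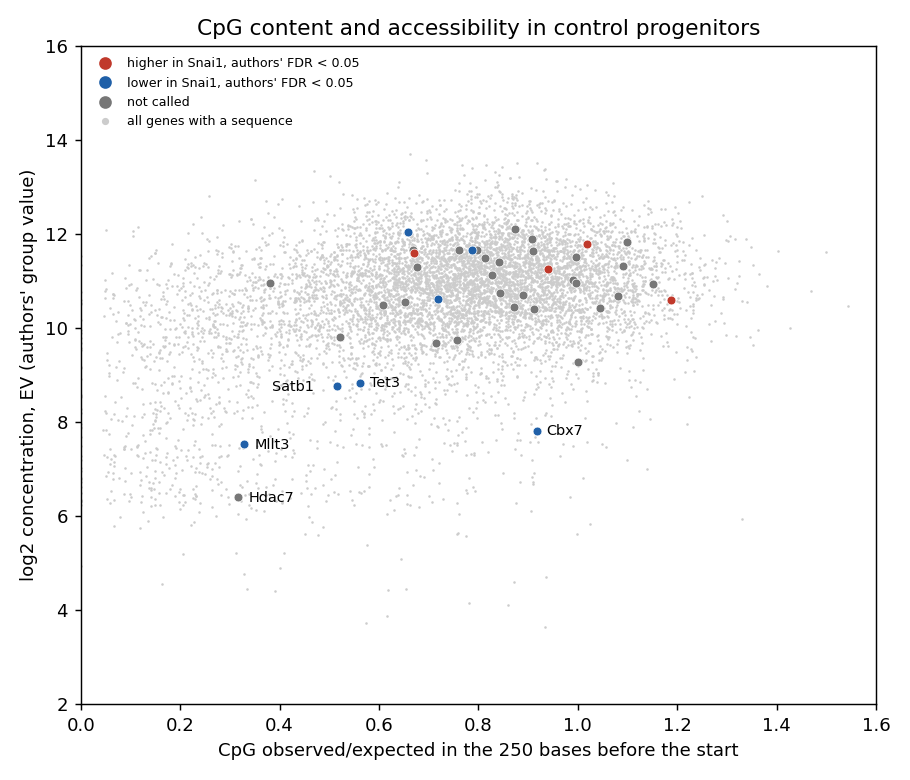
The authors' log2 concentration in EV is plotted against the CpG observed to expected ratio of the 250 bases before the start, for 7955 genes (grey) and 41 members (coloured by call). Cbx7 lies at a ratio of 0.917 and a level of 7.82, below the other CpG-rich members, and Mllt3 and Hdac7 lie at low values of both.

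The E-box that Snai1 is known to bind, CAGGTG or its reverse complement CACCTG, was searched for in the same 250 bases on both strands; these 2 words cannot overlap. It was found in 7 of the 41 member promoters (17.1%), against 14% of the 7955 promoters. None of the 11 called members with a sequence held it (0 of 4 that rose and 0 of 7 that fell), and all 7 matches were at members that did not pass. The matches are shown with up to 10 bases on each side, E-box in capitals, because they mark the members whose start-proximal sequence carries the site:
Setd1a: gggcctcgcgCAGGTGgcggtggtgt
Hdac6: aagaagggatCAGGTGcccggggcca
Ehmt1: gcgcaggcgcCACCTGgcctcgcctc
Kmt5a: ccccctcctcCACCTGgctgcaggcc
Chd4: ggcggttgccCAGGTGacgcgcgcgc
Setdb1: tattggcCACCTGtaggggaaga
Dnmt3b: tctCAGGTGgagagggctg
In Setd1a the E-box began 44 bases before the start, and in the others between 129 and 247 bases before it. The changes at these 7 windows lay between -0.07 (Setd1a) and 0.13 (Kmt5a) per the authors' deposited table. Over all promoters, the share with an E-box was 12.2% of those that rose, 17.1% of those that fell and 14% of those that did not pass. A match is a description of these letters in 250 bases and no evidence of binding, and the windows themselves span 1101 or 2001 bp.

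Among Polycomb genes, Cbx7 and Rnf2 fell and the other 6 of 8 did not pass. Of all windows, 29.9% were called. These genes and each later set of members are too few for their count to be set apart from that share. Rnf2 encodes RING1B, the catalytic E3 ligase of PRC1 that ubiquitinates H2A. Its window, among the more open ones, stood at 12.04 in EV and 11.65 in Snai1 per the authors' deposited table (change -0.39, implied SE 0.08, FDR 3.55e-05). The 51 neighbouring windows on chromosome 1 had a median of -0.20. Measured from that median the change was -0.19, which did not pass when tested again with the implied SE (FDR 0.121 of that second test). Ring1, its paralog, was at 10.70 and 10.74 in EV and Snai1, and Bmi1, which partners these ligases and is needed for stem cell self-renewal, at 9.68 and 9.61. The chromodomain genes Cbx2 (10.28 and 10.35) and Cbx8 (11.63 and 11.56), whose windows lie 17884 bp apart on chromosome 11, had changes of 0.07 and -0.08 per the authors' deposited table. Cbx7 was thus the only Cbx gene of PRC1 called among the 3 listed. The PRC2 core genes Eed (10.55 and 10.56) and Suz12 (11.83 and 11.81) had changes of 0.01 and -0.01 per the authors' deposited table, with implied SEs of 0.08.

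Of the 3 HP1 genes, Cbx5 rose, and Cbx1 and Cbx3 did not pass (33.3% called, against 29.9% of all windows). Cbx5, which encodes HP1 alpha, stood at 11.78 in EV and 12.02 in Snai1 per the authors' deposited table (change 0.24, implied SE 0.07, FDR 0.00774). Its window overlaps that of the divergent gene Hnrnpa1, which encodes a splicing factor and whose nearest window also rose by 0.24 (FDR 0.00645), so the reads cannot be assigned to 1 of these promoters. The Cbx5 change passed neither second test (FDR 0.118 from the median of all windows and 0.341 from that of its neighbours). Cbx3 (HP1 gamma) likewise shares its promoter with the splicing factor gene Hnrnpa2b1, and the values of these windows were 0.13 (FDR 0.148) and 0.10 (FDR 0.296) per the authors' deposited table. Cbx1 (HP1 beta) had a value of 0.11 (FDR 0.406). The H3 lysine 9 methyltransferase genes, whose mark HP1 reads, did not pass in any of 4 cases: Setdb1, Suv39h1, Ehmt1 and Ehmt2 lay between -0.01 and 0.06 per the authors' deposited table.

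Of the 5 DNA methylation genes, Tet2 rose, Tet3 fell and the Dnmt genes did not pass (40% called, against 29.9% of all windows). Tet2 stood at 10.59 in EV and 10.82 in Snai1 per the authors' deposited table (change 0.24, implied SE 0.10), and its FDR of 0.0457 lay just inside the threshold. Its change was 0.16 from the median of all windows and 0.09 from that of its neighbours, and passed neither second test (FDR 0.253 and 0.652). Tet3 fell as given above. The maintenance methyltransferase gene Dnmt1 (10.96 and 10.98), at a start 6909 bp inside the gene, and the de novo genes Dnmt3a (11.32 and 11.29) and Dnmt3b (10.49 and 10.54) had changes of 0.03, -0.03 and 0.05 per the authors' deposited table.

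Of 6 H3 lysine 4 methyltransferase genes, Setd1b rose, Kmt2a fell and 4 did not pass (33.3% called, against 29.9% of all windows). Kmt2a encodes MLL1, a regulator of Hox genes that is rearranged in leukemia, and Mllt3 above is one of its fusion partners there. The Kmt2a window fell from 11.65 in EV to 11.29 in Snai1 per the authors' deposited table (change -0.36, implied SE 0.09, FDR 0.00114). It lay within 78 bp of the annotated 5' end, and the neighbouring windows had a median of 0.08, so its difference from them was -0.44. Setd1b, a SET1 complex enzyme gene, rose from 10.70 to 11.03 per the authors' deposited table (change 0.33, implied SE 0.10, FDR 0.00645), above a neighbourhood median of -0.03. Measured from the median of all windows its change was 0.25, which did not pass when tested again (FDR 0.0609 of that test), and its window also contains the 5' end of another coding gene. Its paralog Setd1a had a value of -0.07, and Kmt2b, Kmt2c and Kmt2d had values of 0.00, -0.14 and 0.11 per the authors' deposited table.

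Among the other methyltransferases and readers with a window, Setd2, the methyltransferase gene for the trimethylated state of H3 lysine 36, rose by 0.18 from 11.25 to 11.42 (implied SE 0.07, FDR 0.0458) per the authors' deposited table, and Mllt3 fell. The Setd2 change passed neither second test (FDR 0.366 from the median of all windows and 0.566 from that of its neighbours). Dot1l, the enzyme to which the Mllt3 product binds, was at 10.93 in EV and 10.96 in Snai1. Kmt5a, an H4 lysine 20 methyltransferase gene, had a value of 0.13 (FDR 0.214) per the authors' deposited table.

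Of 11 demethylase genes, 2 rose, 2 fell and 7 did not pass (36.4% called, against 29.9% of all windows). Against their neighbouring windows 0 were higher and 1, Kdm2a, was lower. Kdm5a, an H3 lysine 4 demethylase gene, rose from 11.31 in EV to 11.63 in Snai1 per the authors' deposited table (change 0.32, implied SE 0.07, FDR 1.09e-04), and its window also contains the 5' end of Ccdc77. Its paralog Kdm5b fell from 10.61 to 10.33 (change -0.28, implied SE 0.09, FDR 0.00607) per the authors' deposited table. The neighbourhood medians had the same signs as these changes, 0.17 for Kdm5a on chromosome 6 and -0.23 for Kdm5b on chromosome 1. Against them the changes were 0.15 (FDR of the second test 0.175) and -0.05 (0.808), and neither passed. Kdm5c, the X-linked paralog, had a value of -0.06.

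Kdm2a, which encodes an H3 lysine 36 demethylase that binds unmethylated CpG islands, fell from 11.28 to 10.96 per the authors' deposited table (change -0.32, implied SE 0.10, FDR 0.00523) at a window 1644 bp inside the gene, with a neighbourhood median of 0.04. Its paralog Kdm2b, which brings a variant PRC1 to CpG islands, was at 9.27 and 9.43 (FDR 0.291). Kdm4a, an H3 lysine 9 and 36 demethylase gene, rose by 0.18 (implied SE 0.07, FDR 0.0456) per the authors' deposited table, from 11.60 to 11.78, but passed neither second test (FDR 0.365 from the median of all windows and 0.701 from that of its neighbours). Kdm4b, the most open window of the list at 12.69 in EV and 12.70 in Snai1, and the H3 lysine 9 demethylase genes Kdm3a and Kdm3b had values between -0.01 and 0.02. The H3 lysine 27 demethylase genes Kdm6a (0.12) and Kdm6b (0.02) did not pass per the authors' deposited table.

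No deacetylase, acetyltransferase or ATP-dependent remodeller gene of the list passed, against 29.9% called over all windows. The list holds few genes of each kind, so this is not read as a trait of these families. The 5 deacetylase genes Hdac3, Hdac4, Hdac5, Hdac6 and Hdac7 had values between -0.17 and -0.03 per the authors' deposited table, with FDR values from 0.447 to 0.907. The coactivator acetyltransferase genes Ep300 and Crebbp had values of 0.10 and -0.04. Crebbp lay on chromosome 16 among windows with a median of 0.27, and measured from them its change was -0.31, which passed the second test (FDR 0.00213). The ATPase genes Smarca4 (BAF complex) and Chd4 (NuRD complex) and the BAF subunit gene Arid1a lay between -0.05 and 0.05 per the authors' deposited table.

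**Figure D4:**
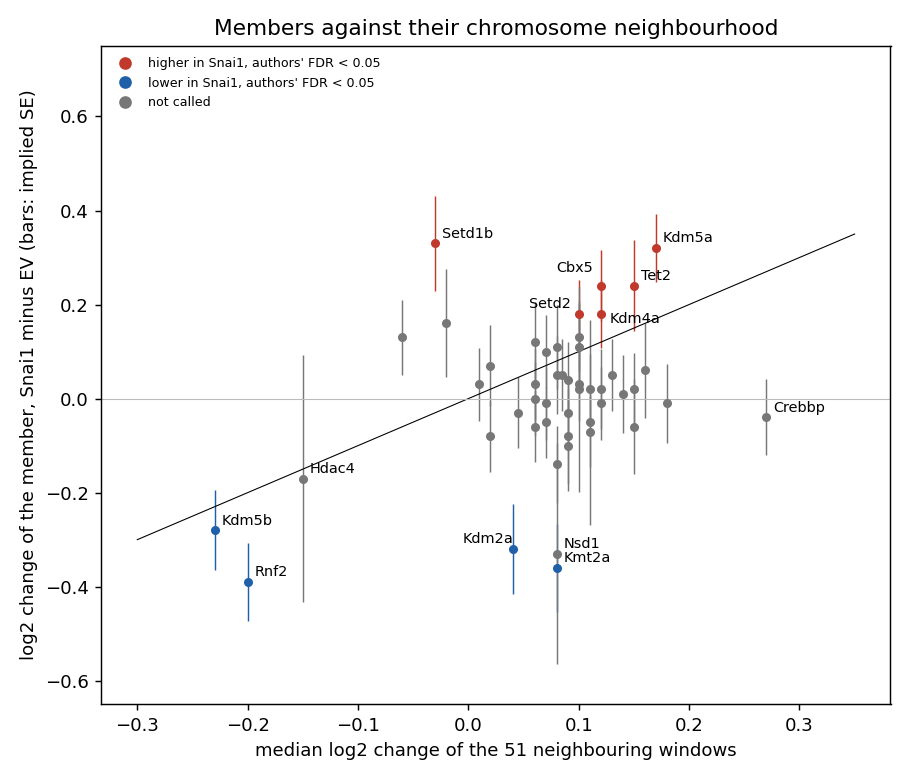
The log2 change of each member (Snai1 minus EV, bars the implied standard error) is plotted against the median change of the 51 windows centred on it along the chromosome, for the 49 members other than Cbx7, Mllt3, Tet3 and Satb1; the line marks equal values. Rnf2 and Kdm5b sit among windows with medians of -0.20 and -0.23, while Kmt2a, Kdm2a and Setd1b stand away from the line.

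Called members differed in how far they stood from their neighbours. Against the median of their 51 neighbouring windows, 7 of the 14 still passed in the same direction: Cbx7, Mllt3, Tet3, Satb1, Kmt2a and Kdm2a were lower and Setd1b was higher. The background of that second test was 12.7% of genes with a window (4.69% higher and 8.06% lower). The medians around Cbx7, Tet3 and Satb1 were 0.11, 0.11 and 0.07, and that around Mllt3 was -0.13. The window nearest to that of Mllt3, at the focal adhesion gene Focad 288307 bp away, also fell, by 0.96 (FDR 2.80e-23) per the authors' deposited table. Against the median of all windows, 0.08, Kdm5a (FDR of that test 0.00631) was the increase that still passed, and Setd1b (0.0609), Tet2, Cbx5, Kdm4a and Setd2 did not. In that test 1 member was higher and 9 were lower, against a background of 21.0% called (7.26% higher and 13.8% lower). Of these 9, Kmt2c (-0.22 from that median) was the member the authors' FDR had not called.

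A wider list of 142 other chromatin regulators gave the partners of these genes, and 123 had a window. Per the authors' deposited table, 18 of them rose, 10 fell and 95 did not pass, 22.8% called against the 29.9% of all windows, with a median of 0.07 and a range from -0.74 to 0.63. None of the 12 other PRC1 genes with a window passed, at values between -0.18 and 0.20. Of 9 other PRC2 genes, Phf19, which encodes an accessory subunit that reads H3 lysine 36 methylation, fell by 0.74 (FDR 1.23e-08), and Ezh2, the catalytic subunit gene, rose by 0.21 (FDR 0.0176) per the authors' deposited table. Among partners of the H3 lysine 4 enzymes, Psip1, which encodes LEDGF and tethers MLL1 to chromatin, fell by 0.42 (FDR 5.47e-07), and Wdr5, a scaffold subunit gene, rose by 0.31 (FDR 6.79e-04). Setdb2, a relative of Setdb1, rose by 0.40 (FDR 4.11e-07) per the authors' deposited table, and Uhrf1, the partner of Dnmt1 in maintenance methylation, rose by 0.24 (FDR 0.00686). The acetyltransferase genes Naa60 (0.36) and Hat1 (0.28) rose, as did Atrx (0.28), a remodeller gene of heterochromatin, per the authors' deposited table. Their neighbours had medians of 0.27, 0.16 and 0.13, and against these none of the 3 passed (FDR of the second test 0.606, 0.280 and 0.337); Uhrf1 (0.333) and Ezh2 (0.496) did not pass it either. The remodeller gene Chd7 rose by 0.63 (FDR 3.46e-06) among neighbours with a median of 0.55, and the NuRD subunit gene Mta1 fell by 0.33 (FDR 0.00276) among neighbours with a median of -0.33.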

How the data were processed

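ATAC-seq libraries came from 9 samples in 3 groups of 3, by title. The tools were DiffBind, Picard, Bowtie2 and fastp on build mm10, per the submitters' processing notes; versions, the Tn5 shift, counting, scaling and reads per library were not given in the sources used here. For each promoter window, the authors deposited log2 concentrations per group, a log2 fold (EV minus Snai1; its sign was turned here) and, per the file headers, a p-value and FDR. Of 10274 rows, 3 exact repeats were dropped. Windows of 2001 bp (plus strand) and 1101 bp (minus strand) were matched to RefSeq genes (GRCm38.p6, the coordinates of mm10), and a gene with several windows took the one with the highest concentration; each listed gene had 1. The implied SE is the change over the normal deviate of its p-value; below a change of 0.1, or with p listed at 0, the median of 1 of 20 accessibility bins was used. Second tests took off the median change (all windows, or 51 neighbouring ones), divided by the implied SE, and were Benjamini-Hochberg adjusted over all windows; they treat the subtracted median as known. On simulated data with 200 of 10271 windows changed, centring on all windows recovered 91.2% of changes of 0.5 log2, and centring on neighbours 89.2%; 5.94% and 9.62% of the calls were false. Shorter windows read fewer bases, so accessibility ranks were taken within a width, on the concentration over both groups. No library-level test was possible with 0 columns of values per sample. All listed genes could be named, with full statistics for called ones; of the other regulators, up to 2 called genes per role with the smallest FDR, leaving out an item that is not reported here. The members, lists and tests were chosen with earlier results of these data known. Work used Python 3.11.15, pandas 2.3.3 and SciPy 1.17.1.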

Additional observations from a re-analysis of the deposited data

How the results depend on the processing

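Depth per library is unknown and no library could be left out, because the table holds group values. No paired analysis was possible because the columns carry no library or replicate number. The 6 increases among the members were the less stable count. They became 1 when changes were centred on the median of all windows, 1 when centred on the 51 neighbouring windows, and 3 at an FDR of 0.01. The 8 decreases became 9, 7 and 8 under those settings. They became 3 where only windows within 250 bp of the outermost gene boundary were kept (a choice made after seeing the data, 34 members left) and 4 where a log2 concentration of at least 9 was required (45 left). Both filters remove Cbx7, Mllt3, Tet3 and Satb1, and the first also removes the more open Kdm2a window, 1644 bp inside its gene. The median change of the members went from 0.01 to -0.07 when centred on all windows, by construction, as all windows had a median of 0.08. Centred on neighbours it was -0.08, a value that depends on the median around each member. The 18 increases among the other regulators became 6, 2 and 10 under the first 3 settings and 11 at outermost boundaries; their 10 decreases lay between 7 and 15. Of single members, 5 of the 14 called lost their call on centring by all windows and 7 on centring by neighbours, and 1 that did not pass came to pass under each, Kmt2c (-0.22) and Crebbp (-0.31); 0 called members changed sign. Choosing the window with the smallest p changed nothing, since each member had 1 window.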
